A study of Saccharomyces cerevisiae with 12 samples.

Results

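Yeast cells lacking the ubiquitin ligase Hel2 were compared with wild type cells after both had been exposed to methyl methanesulfonate (MMS), which alkylates DNA and RNA. The comparison used 6 of the 12 poly(A) RNA-seq libraries of the study, chosen by their labels: 3 of MMS-treated hel2 deletion cells against 3 of MMS-treated wild type cells. It ran over the 6463 genes, of 7109 in the deposited table, that had enough counts to be tested. All cells were of the BY4741 background, a MATa laboratory strain with auxotrophic markers, and were grown in YPD, a rich medium, until the optical density reached about 0.5. Exposure to MMS lasted 90 min, at 30 °C, and the labels give no dose. The genotypes are given as wild type or ∆hel2, with no word on how the deletion was made or on how many clones were used. The strains also differed at LEU2, so the effect of the hel2 deletion and that of the LEU2 difference cannot be told apart in any value given here. The 3 untreated libraries of each strain served as the background without MMS. Libraries are called WT_MMS_1 to WT_MMS_3 and hel2_MMS_1 to hel2_MMS_3, and levels are given as CPM, counts relative to library size after scaling by the trimmed mean of M-values (TMM).

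Hel2 recognises ribosomes that have collided on a damaged or difficult message and tags the small subunit with ubiquitin, which starts ribosome-associated quality control: the stalled ribosome is taken apart and the unfinished protein is degraded. Collided ribosomes also activate the kinase Gcn2, through Gcn1, in the integrated stress response. Gcn2 phosphorylates the initiation factor eIF2, general translation falls, and the transcription factor Gcn4 is made from its own message, mainly by a change in translation. Gcn4 then switches on genes of amino acid and vitamin synthesis. The title of the study names an antagonism between the 2 pathways on colliding ribosomes, and the comparison under MMS bears on which transcripts differ when Hel2 is missing.

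The 12 libraries held 36472686 to 53638964 counts, with WT_MMS_1 the shallowest. WT_MMS_1 stood apart from its group on the second principal component, at -44.4 against -22.1 and -21.9 for the other two, while the hel2_MMS libraries lay between 19.0 and 20.6. Results are therefore also given without WT_MMS_1 for many genes and lists, though not for every one that changed. Cytosolic ribosomal protein genes took 6.83 to 8.69% of the counts in the wild type under MMS and 3.92 to 4.24% in the deletion strain. BY4741 is a strain of the a mating type, and the defining transcripts of a cells, MFA2 and STE2, had 32333 to 52934 and 18644 to 28783 counts in the libraries under MMS. Those of alpha cells were low but not at 0, with 38 to 98 counts of MF(ALPHA)1, 262 to 589 of MF(ALPHA)2 and 145 to 329 of STE3, and SAG1, an agglutinin gene of alpha cells, had 3388 to 6021. Of the 7 markers of a cells 2 were higher in the deletion strain and 3 lower, where 32.0% of all genes were higher and 29.8% lower. AGA2 was higher by 0.30 and ASG7 by 0.75 on the log2 scale, and MFA1 (-0.39), STE2 (-0.24) and BAR1 (-0.55) were lower. The median was -0.12, against 0.23 under library-size scaling, where MFA1 and STE2 had no call and STE2 stood at 0.11. STE2 also lost its call without WT_MMS_1, hel2_MMS_2 or hel2_MMS_3 (adjusted p = 0.0674 to 0.093). Summed, they stood at 2490, 2393 and 2110 CPM in the wild type and 2281, 2005 and 1931 CPM in the deletion strain, and the 4 alpha cell markers at 123, 104 and 107 and 95.7, 105 and 102 CPM.

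HEL2 (YDR266C) had 28.6, 33.9 and 41.4 CPM in the 3 wild type libraries under MMS and 0.606, 0.608 and 0.429 CPM in the 3 deletion libraries, from 35, 39 and 29 counts. Every deletion library lay far below every wild type library, as the labels have it, at a log2 difference of -5.98 ± 0.19 (deletion minus wild type ± its standard error, as for all differences here, which are on the log2 scale; adjusted p = 3.32e-10 by edgeR's quasi-likelihood test with Benjamini-Hochberg adjustment, n = 3 per group). LEU2 (YCL018W), which encodes the third enzyme of leucine synthesis, had 0.862, 0.445 and 0.398 CPM in the wild type and 341, 325 and 286 CPM in the deletion strain under MMS, without overlap. The log2 difference was 9.19 ± 0.37 under MMS (adjusted p = 6.46e-09) and 10.73 without it. Of the other markers of the background, HIS3, of histidine synthesis, rose from 135, 147 and 142 to 258, 263 and 269 CPM, by 0.90 ± 0.061 (adjusted p = 1.02e-07), and without MMS it differed by 0.12 (adjusted p = 0.278). MET17, of methionine synthesis, stayed under 1 CPM in all 6 libraries, with a difference of -1.11 (adjusted p = 0.0647) that passed without WT_MMS_3 (adjusted p = 0.0387), with DESeq2 (adjusted p = 0.034) and in a fit of the 6 MMS libraries (adjusted p = 0.0252). URA3, of uracil synthesis, was at 0.123, 8.41 and 0.171 CPM in the wild type and 0.208, 0.109 and 0.133 CPM in the deletion strain, so that its call (-4.28, adjusted p = 0.0248) rested on WT_MMS_2 alone and the difference was -0.021 without that library (adjusted p = 0.977). Its call was also lost without any 1 deletion library (adjusted p = 0.0598 to 0.0784), with limma-voom (adjusted p = 0.213) and with the replicate block (adjusted p = 0.0733).

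Next to HEL2, PEX10, a peroxisome gene, was higher under MMS by 0.45 ± 0.082 (adjusted p = 0.000414), and CIA1, of iron-sulfur cluster assembly, lower (-0.20, adjusted p = 0.0332), or higher by 0.14 under library-size scaling. The call of CIA1 was lost without WT_MMS_3 (adjusted p = 0.144), without any 1 deletion library (adjusted p = 0.0526 to 0.107), with the replicate block (adjusted p = 0.0506) and in a fit of the 6 MMS libraries (adjusted p = 0.0684). NFS1, next to LEU2 and a cysteine desulfurase gene, was lower (-0.38 ± 0.10, adjusted p = 0.00687), but stood at -0.015 under library-size scaling (adjusted p = 0.825). YCL019W, on the other side of LEU2, read 40.7, 2.8 and 3.88 CPM in the wild type and 2.67, 2.63 and 2.87 CPM in the deletion strain, and its call (-2.52, adjusted p = 0.0327) was lost without WT_MMS_1 (adjusted p = 0.169), without any 1 deletion library (adjusted p = 0.0804 to 0.0867), with limma-voom (adjusted p = 0.148) and with the replicate block (adjusted p = 0.102). YCL020W, its neighbour, had too few counts to be tested.

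The deletion and wild type strains differed at most genes once MMS was present. Of 6463 genes tested, 3999 passed at an adjusted p under 0.05 (61.9%), 2070 of them higher in the deletion strain (32.0%) and 1929 lower (29.8%). At least 2-fold differences were found for 488 higher and 466 lower genes, and at least 4-fold ones for 49 and 55. All 3 deletion libraries lay above all 3 wild type libraries at 2341 genes (36.2%) and below them at 2074 (32.1%). With library-size scaling 3143 genes were higher and 984 lower, the share of higher genes among those that passed went from 51.8% to 76.2%, and the median of all genes from 0.028 to 0.37 on the log2 scale. That scaling also raised the median of each gene list described here, by 0.32 to 0.37. Of the calls, 3053 had the same sign under both scalings and 3 the opposite one. In bulk RNA, fewer cells that express a gene and less RNA per cell cannot be told apart.

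Without MMS the strains differed far less. There 339 genes were higher in the deletion strain (5.25%) and 215 lower (3.33%), 46 of the 554 at least 2-fold, and the median size of the log2 difference over all genes was 0.15 against 0.45 under MMS. Without WT_1, WT_2, WT_3, hel2_1 or hel2_2 in turn, 305 to 336 genes passed in the untreated comparison. The comparisons with and without MMS share no library. Of the genes higher under MMS, 243 were also higher without it, which is 11.7% of the former and 71.7% of the latter, and of the lower genes 177 were shared, 9.18% and 82.3%. Another 27 genes that were higher without MMS were lower with it, and 11 were lower without and higher with it. The difference of the deletion effect between the conditions was tested itself (an interaction term): it was positive at 1200 genes (18.6%) and negative at 1387 (21.5%). Of these 2587 genes, 2448 also passed under MMS with the same sign. The difference contains the comparison under MMS and uses its libraries, so that overlap is partly built in.

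**Figure D1:**
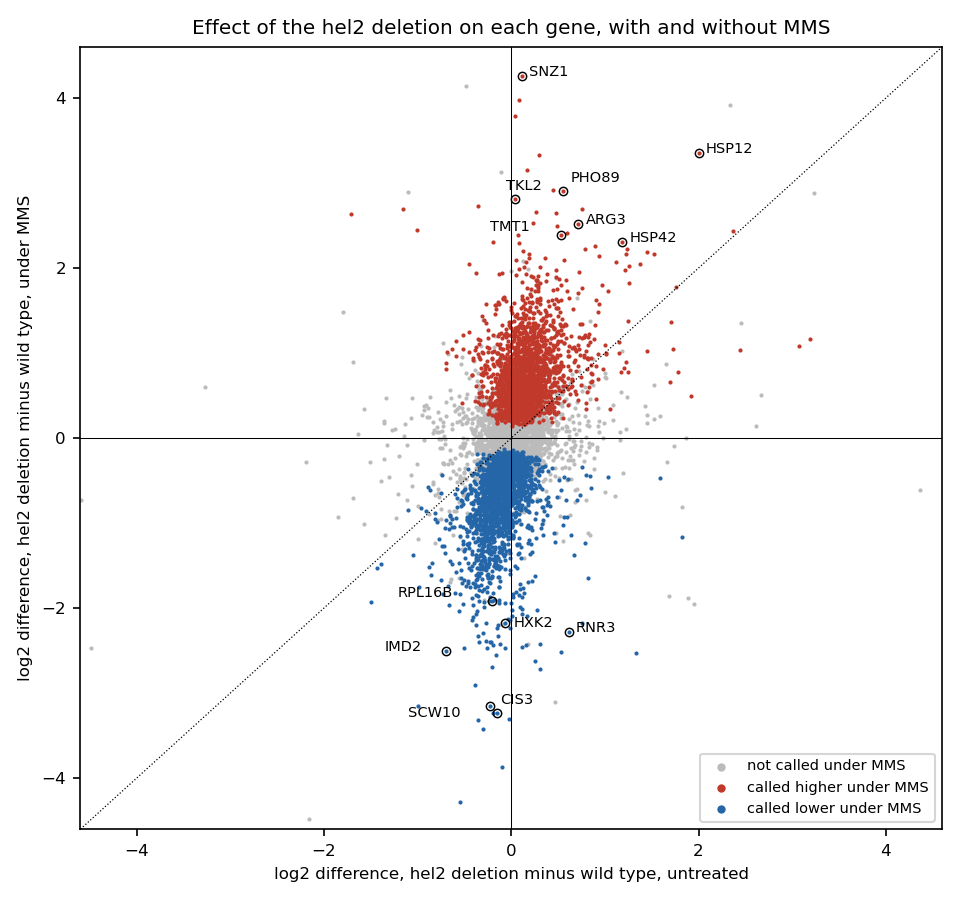
Each point is 1 of 6452 genes, with the log2 difference between deletion and wild type without MMS on the horizontal axis and under MMS on the vertical one; 11 genes, among them HEL2, LEU2 and GCD14, lie outside the axes. Genes called under MMS (red higher, blue lower) spread vertically to beyond 4 while most stay near 0 without MMS, and HSP12 and HSP42 lie to the right of 1 on the horizontal axis.

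After LEU2, SNZ1 showed the largest rise among called genes with a standard symbol, a mean log2 CPM of at least 4 and no overlap. SNZ1 (YMR096W) is a gene of vitamin B6 synthesis and a target of Gcn4. It stood at 70.6, 53.7 and 60.8 CPM in the wild type and 1239, 1173 and 1143 CPM in the deletion strain under MMS, a 19.2-fold difference (4.26 ± 0.11 on the log2 scale, adjusted p = 1.12e-10). All deletion libraries were above all wild type ones, while without MMS the strains had 21.8 ± 1.91 and 23.6 ± 1.3 CPM (mean ± SD, n = 3). SNO1, which encodes the glutaminase partner of Snz1, went from 20.5, 14.6 and 16.4 to 105, 96.4 and 96.1 CPM, by 2.53 ± 0.16 (adjusted p = 5.71e-08). MTG1, a mitochondrial GTPase gene, went from 5.24, 6.05 and 7.35 to 59.8, 57.8 and 48.7 CPM, by 3.15 ± 0.15 (adjusted p = 7.37e-09). SNZ1, SNO1 and MTG1 stand next to each other in the R64 annotation, and since the strand setting of the counting is not given, reads of one cannot be told apart from those of its neighbour where they overlap.

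HSP12 (YFL014W), whose small protein protects membranes under stress, read 283, 300.3 and 342 CPM in the wild type and 3366, 2849 and 3234 CPM in the deletion strain, higher by 3.35 ± 0.15 (adjusted p = 5.22e-09). It was already higher without MMS, by 2.0 (adjusted p = 7.15e-06), at 3.75 ± 0.785 against 15 ± 2.05 CPM, and the effect under MMS exceeded that one (difference 1.35, adjusted p = 0.00026). HXT5, a hexose transporter gene of slow growth, read 54.8, 27.4 and 36.6 CPM against 326, 280.5 and 287 CPM, and PHO89, a sodium-phosphate cotransporter gene, 9.76, 6.08 and 6.04 against 58.7, 53.8 and 51.2 CPM. They were higher by 2.91 ± 0.20 and 2.91 ± 0.18, with no overlap. ARG3, the ornithine carbamoyltransferase gene of arginine synthesis, had 28.1, 27.6 and 28.7 CPM in the wild type and 169, 163 and 152 CPM in the deletion strain. The spread between replicates was small against that step of 2.52 ± 0.08 (adjusted p = 3.32e-10). TKL2, the minor transketolase gene, rose by 2.82 ± 0.29 from 88.6, 35.3 and 49.2 CPM, where WT_MMS_1 was the highest of its group. BSC5 rose by 2.65 ± 0.15 and FMP16 by 2.5 ± 0.17 (adjusted p = 2.71e-08 and 8.4e-08). YGL117W, which the annotation names ARO5, read 41.3, 24.7 and 29.7 CPM against 183, 176 and 262 CPM, by 2.7 ± 0.77 (adjusted p = 0.0146, or 0.0513 without WT_MMS_2).

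Several of the largest falls were in genes of wall proteins. SCW10 (YMR305C), a wall protein related to glucanases, read 587, 533 and 446 CPM in the wild type and 55, 58.3 and 53.6 CPM in the deletion strain, lower (-3.23 ± 0.12, adjusted p = 1.08e-09). CIS3, another wall protein, read 2546, 2216 and 1799 CPM against 254, 255 and 230.0 CPM, and TOS6, a gene for a cell wall protein, 321, 265 and 211 against 28.5, 29.6 and 22.5 CPM. In both genes the deletion libraries lay at a level never reached in the wild type, with differences of -3.15 ± 0.14 and -3.3 ± 0.16. INA1 differed by -3.32 ± 0.17, the fatty acid elongase gene ELO3 (-2.9 ± 0.13), the mannoprotein gene TIR1 (-2.71 ± 0.19), SIM1, of the SUN family (-2.7 ± 0.12), and the mannoprotein gene SRL1 (-2.48 ± 0.12). Without MMS these 8 genes differed by -0.38 to 0.31, and none passed there (adjusted p from 0.083 for ELO3 to 0.956 for TOS6). IMD2, an IMP dehydrogenase gene of GTP synthesis, read 28.9, 29.6 and 23.9 CPM against 5.16, 5.45 and 3.9 CPM, lower (-2.51 ± 0.12), and was also lower without MMS (-0.70, adjusted p = 0.00251).

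In GCD14 and MCM5, among the largest falls, 1 wild type library each set the size of the difference. GCD14, a gene of a tRNA methyltransferase, read 20.9, 27.9 and 7882 CPM in the wild type and 19.3, 18.8 and 18.8 CPM in the deletion strain. Only WT_MMS_3 was high, and the call (-7.12, adjusted p = 0.0204) was lost with limma-voom (adjusted p = 0.159), with the replicate block (adjusted p = 0.144), in a fit of the 6 MMS libraries (adjusted p = 0.0943) and without any 1 deletion library (adjusted p = 0.0643 to 0.0653). Without WT_MMS_3 it still passed as lower, at the smaller difference of -0.36 (adjusted p = 0.0167). MCM5, of the replicative helicase, read 442, 4764 and 537 CPM against 354, 299 and 328 CPM, with WT_MMS_2 alone high, and differed by -2.55 (adjusted p = 0.0241), and without WT_MMS_2 it still passed as lower, at -0.58 (adjusted p = 0.000426). The call of MCM5 was lost with the replicate block (adjusted p = 0.0783), in a fit of the 6 MMS libraries (adjusted p = 0.0908) and without any 1 deletion library (adjusted p = 0.0618 to 0.0709). Over the 12 libraries, 71 genes stood in some library at least 5 times above both other replicates, with 12, 11 and 6 such genes in WT_MMS_1, WT_MMS_2 and WT_MMS_3 and 6, 3 and 10 in the deletion libraries under MMS.

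**Figure D2:**
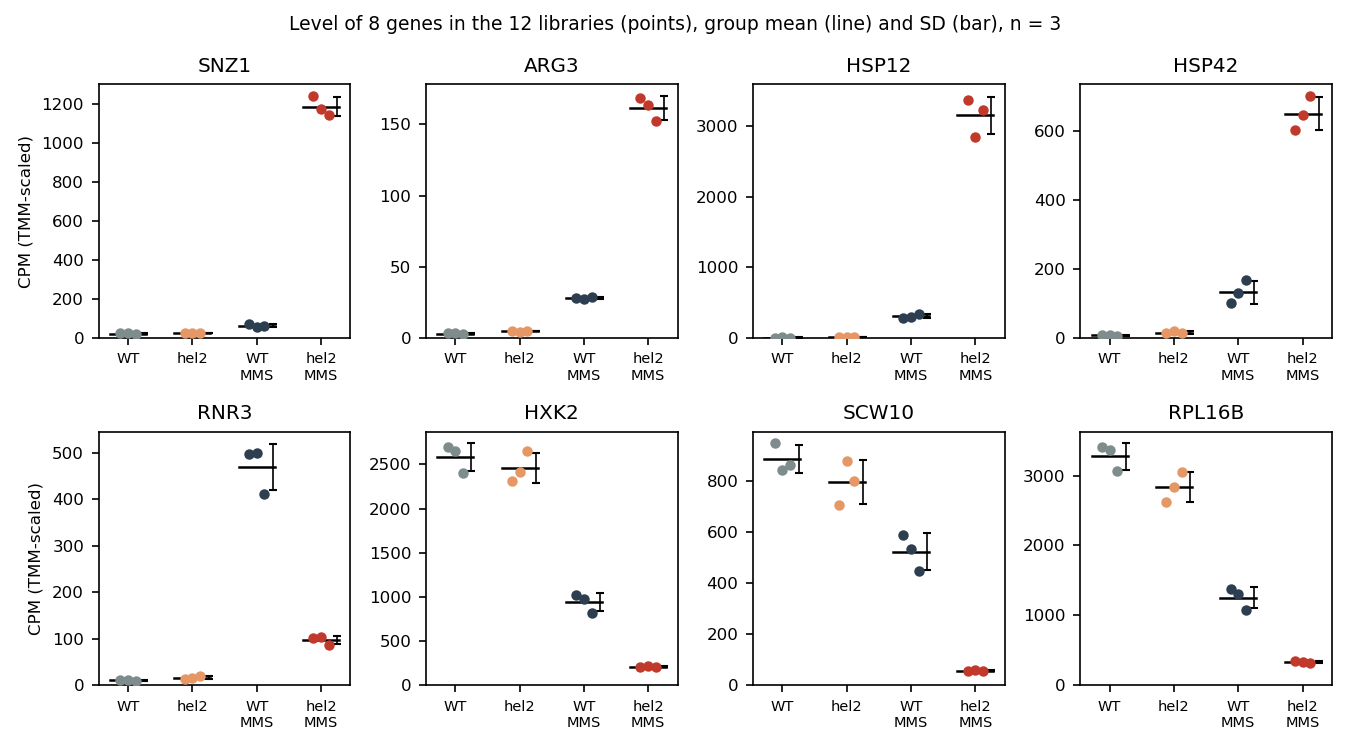
Level in TMM-scaled CPM (vertical axes from 0) of 8 genes in the 12 libraries by group, each point 1 library, with the group mean (line) and SD (bar, n = 3). SNZ1, ARG3, HSP12 and HSP42 are highest in the deletion strain under MMS, RNR3 is highest in the wild type under MMS, and HXK2, SCW10 and RPL16B are lowest in the deletion strain under MMS.

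Genes of arginine synthesis were higher in the deletion strain as a group. All 10 members rose under MMS, with a median log2 difference of 1.78, where 32.0% of all genes rose and the median over all genes was 0.028. ARG1, argininosuccinate synthetase, had 428, 368 and 383 CPM in the wild type and 1789, 1790 and 1607 CPM in the deletion strain, and ARG4, argininosuccinate lyase, 680.5, 577 and 602 and 2020, 2051 and 2007 CPM, with no overlap in either. CPA1, of carbamoyl phosphate synthesis, rose by 1.85 ± 0.12, ARG56 (ARG5,6, the 2 middle steps of ornithine synthesis) by 2.17 ± 0.091, and ARG2, the first step, by 0.96 ± 0.081, the lowest of the group. Without MMS 6 members were higher and 1, ARG8, was lower, at a median of 0.30, and all 10 effects were larger under MMS by the test of the difference.

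Of the 6 genes on the histidine synthesis list 5 rose and none fell, at a median of 1.02, where 32.0% of all genes rose. HIS3 is listed with the strain markers. HIS5, histidinol phosphate aminotransferase, had 255, 263 and 253 CPM in the wild type and 872, 857 and 871 CPM in the deletion strain, and HIS4, which covers several steps, 529.5, 458 and 498 and 1547, 1547 and 1451 CPM. The groups were wide apart in both, by 1.75 ± 0.065 and 1.61 ± 0.086. HIS6 did not pass, at 0.11 (adjusted p = 0.16), but did with library-size scaling (adjusted p = 0.00208) and with the stricter filter on level (mean log2 CPM of 4 or more, adjusted p = 0.0308). Of 9 lysine synthesis genes 8 rose, at a median of 0.87, led by LYS1, saccharopine dehydrogenase, by 1.27 ± 0.093, and by the pathway's activator gene LYS14, by 1.15 ± 0.084. LYS4, homoaconitase, was lower (-0.28 ± 0.094, adjusted p = 0.0202), but lost the call without WT_MMS_1 (adjusted p = 0.0641) or hel2_MMS_3 (adjusted p = 0.0799) and stood at 0.079 under library-size scaling. The 7 other Gcn4 targets on the list all rose, at a median of 1.19. They are a part of the targets of Gcn4, and the list was chosen with earlier results of these data known. TMT1, a methyltransferase gene, rose from 90.5, 101 and 107 to 525, 514 and 522 CPM, UGA3, an activator of GABA use, by 1.86 ± 0.075, and ATG41 (also ICY2), of autophagy, by 1.87 ± 0.14. PCL5, the cyclin that marks Gcn4 for degradation, rose by 1.19 ± 0.076 (adjusted p = 5.76e-08), and TMT1, UGA3, ATG41, PCL5 and BNA1 were higher without MMS too, while YMC2 was lower there. TMT1 is a neighbour of the glutaredoxin gene GRX4, which rose by 1.94 ± 0.066, and LYS14 one of ARO3. The reads of such neighbours may not be fully told apart, and the strand setting is not given.

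Of 14 genes of aromatic amino acid synthesis 9 rose and none fell, at a median of 0.27, where 32.0% of all genes rose and 29.8% fell. Without WT_MMS_1, 11 rose and 1, ARO7 (chorismate mutase), fell, at a median of 0.35. ARO3, the first enzyme of the pathway, had 385, 378 and 395 CPM in the wild type and 925, 917 and 925 CPM in the deletion strain, and ARO9, an aromatic aminotransferase, rose by 1.11 ± 0.1. Of 12 genes of threonine, serine, asparagine and glycine synthesis 5 rose and 3 fell, at a median of 0.013, against 0.36 with 8 higher and 1, THR1, lower under library-size scaling. SER3, of the first step of serine synthesis, rose from 96.9, 95.6 and 108 to 448, 476 and 457 CPM, by 2.2 ± 0.067 (adjusted p = 3.32e-10), ASN1, asparagine synthetase, by 1.19 ± 0.082, HOM3, aspartate kinase, by 1.15 ± 0.11, SER1 by 0.72 ± 0.071 and HOM2 by 0.50 ± 0.10. THR1, homoserine kinase, fell (-0.66, adjusted p = 0.000348), SER2, of the last step of serine synthesis (-0.50, adjusted p = 5.8e-05) and HOM6, homoserine dehydrogenase (-0.39, adjusted p = 0.0177). SER2 and HOM6 lost the call under library-size scaling (adjusted p = 0.269 and 0.801), and HOM6 also without WT_MMS_1 (adjusted p = 0.0566) or hel2_MMS_3 (adjusted p = 0.0612).

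Branched-chain synthesis, the pathway in which LEU2 acts, held members that differed either way. Of 10 genes 3 rose and 3 fell, shares near the 32.0% and 29.8% of all genes. Their median was -0.066, against 0.28 with 7 higher and 0 lower under library-size scaling. LEU4, the main isopropylmalate synthase, had 1659, 1151 and 1222 CPM in the wild type and 2637, 2661 and 2438 CPM in the deletion strain, higher by 0.94 ± 0.14 (adjusted p = 9.47e-05), and ILV2, acetolactate synthase, rose by 0.69 ± 0.087 (adjusted p = 1.95e-05). ILV3, a dehydratase gene, was higher by 0.30 (adjusted p = 0.03) with overlapping libraries, and lost the call without WT_MMS_2, WT_MMS_3, hel2_MMS_1 or hel2_MMS_2 (adjusted p = 0.0814 to 0.11), with RLE scaling (adjusted p = 0.102) and with DESeq2 (adjusted p = 0.0749). ILV6, the regulatory subunit of acetolactate synthase, was lower (-0.43 ± 0.14), LEU9, the second isopropylmalate synthase (-0.29 ± 0.084), and BAT1, the mitochondrial aminotransferase (-0.23 ± 0.082, adjusted p = 0.0174, 0.0091 and 0.0284). Under library-size scaling LEU9 stood at 0.063, BAT1 at 0.12 and ILV6 at -0.06, all without a call. Only 1 of the 3 stayed called without WT_MMS_1, hel2_MMS_1 or hel2_MMS_3: ILV6 lost its call in each case (adjusted p = 0.0523 to 0.0593), and BAT1 without any 1 library but WT_MMS_3 (adjusted p = 0.0528 to 0.0967). LEU1, isopropylmalate isomerase, did not pass (-0.091, adjusted p = 0.328), or was higher by 0.26 under library-size scaling (adjusted p = 0.00469). Of 7 targets of Leu3, the activator that senses a leucine precursor, LEU4 and ILV2 rose and BAT1 and the glutamate dehydrogenase gene GDH1 fell, GDH1 (-0.56, adjusted p = 7.08e-05), at a median of -0.091, against 0.26 under library-size scaling. LEU2 itself is left out of both the branched-chain list and the Leu3 list.

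Glutamate, glutamine and proline genes had 5 of 10 higher and 3 lower, at a median of 0.30. PUT1, proline oxidase, rose by 1.12 ± 0.11, GDH2, of glutamate breakdown, by 0.68 ± 0.075, PUT2 by 0.35 ± 0.061, PRO2 by 0.26 ± 0.068 and GLT1, glutamate synthase, by 0.40 ± 0.13, which lost its call without WT_MMS_2 (adjusted p = 0.0585) or WT_MMS_3 (adjusted p = 0.0511). PRO3, the last enzyme of proline synthesis, had 480.3, 349 and 336 CPM in the wild type and 184, 181 and 182 CPM in the deletion strain, lower (-1.09 ± 0.13), and PRO1, the first, was lower (-0.78 ± 0.10). Sulfur amino acid genes had 8 of 23 higher and 9 lower, where 32.0% of all genes were higher and 29.8% lower. Their median was -0.043, against 0.29 with 13 higher and 6 lower under library-size scaling, and MET28 was not tested. Without WT_MMS_1 10 were higher and 7 lower, at a median of 0.046. STR3 and STR2, which convert between cysteine and homocysteine, rose from 17.9, 13.8 and 18 to 93, 83.7 and 87.7 CPM and from 35.5, 49.1 and 50.5 to 172, 182 and 184 CPM, without overlap. SAM1, an S-adenosylmethionine synthetase, fell (-1.53) and CYS3, of cysteine synthesis (-1.5, adjusted p = 2.39e-07 and 1.31e-06). In the vitamin B6 family, SNZ2 and SNZ3, the relatives of SNZ1, were lower (-0.64 ± 0.12 and -0.93 ± 0.20) while SNO2 and SNO3 did not pass, and the 6 members had a median of -0.17, against 0.18 under library-size scaling. SNZ2 and SNZ3 are near copies of each other, so their counts are uncertain, and SNZ2 lost its call under library-size scaling (adjusted p = 0.0601).

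Among 18 amino acid permease genes 5 rose and 5 fell, shares near the 32.0% and 29.8% of all genes. Their median was -0.075, against 0.29 with 10 higher and 2 lower under library-size scaling. AGP1, a broad permease, had 184, 104 and 128 CPM in the wild type and 428, 439 and 414 CPM in the deletion strain, and GAP1, the general permease, 44.1, 27.2 and 29.4 and 70.2, 77.7 and 74.7 CPM. Both rose without overlap, by 1.62 ± 0.16 and 1.15 ± 0.24, and CAN1, for arginine, DIP5, for acidic amino acids, and MUP3, for methionine, by 0.49, 0.49 and 0.48. The aromatic and other permeases TAT2 and TAT1 fell (-0.83 and -0.79), HIP1, for histidine (-0.48), AGP2 (-0.45) and SAM3, for S-adenosylmethionine (-0.36, adjusted p = 0.00979, 0.0219 and 0.0372 for the last 3). In WT_MMS_1 the permease list lay 0.55 above the other two libraries of its group, and without that library 6 rose and 3 fell, at a median of 0.091. The part of that library in the result was not tested further. AGP2 and SAM3 lost their calls without WT_MMS_1 (adjusted p = 0.0782 and 0.159) or hel2_MMS_3 (adjusted p = 0.0757 and 0.116), and SAM3 without hel2_MMS_1 or hel2_MMS_2 (adjusted p = 0.0597 and 0.0684). Under library-size scaling HIP1, AGP2 and SAM3 had no call, and SAM3 stood at 0.012.

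**Figure D3:**
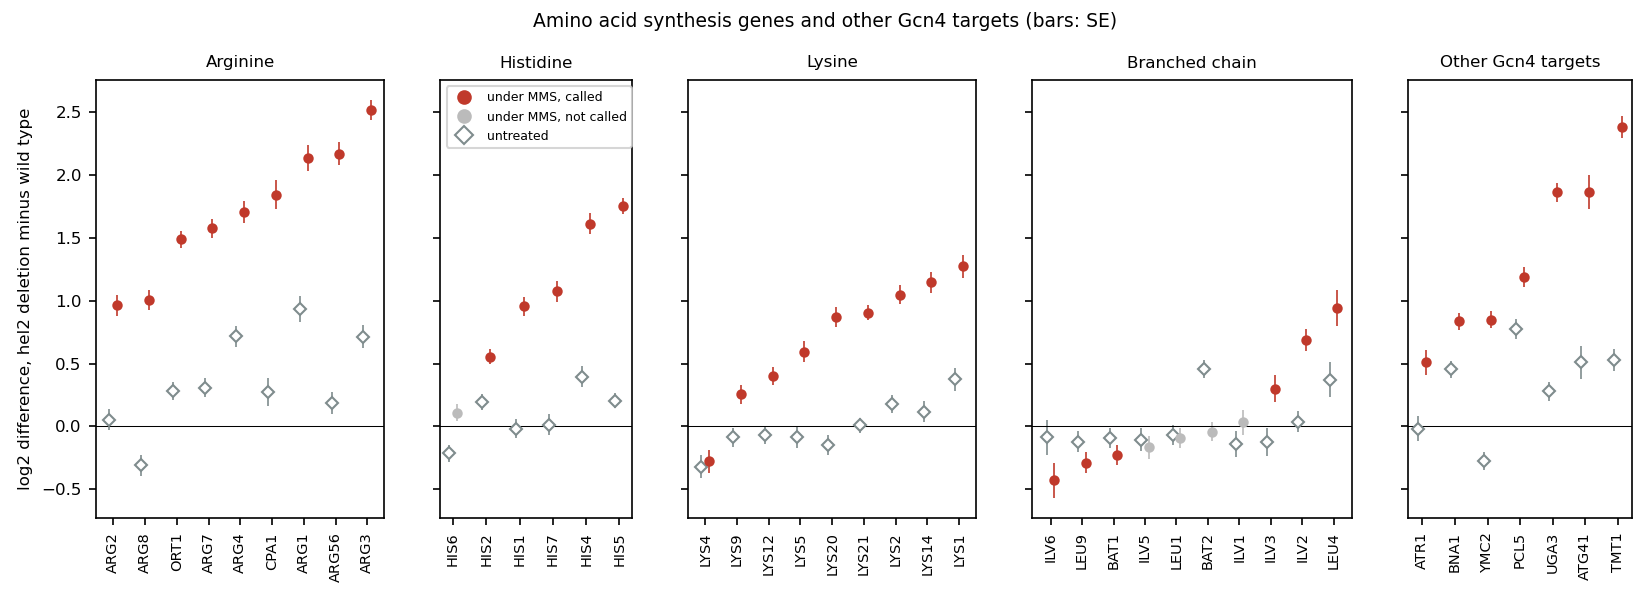
Log2 difference between deletion and wild type (vertical axis, bars are SE) under MMS (filled points, red where called) and without MMS (open diamonds) for 9 of the 10 arginine genes and the histidine, lysine and branched-chain genes and other Gcn4 targets, each panel ordered by the value under MMS. The arginine genes drawn lie from 0.96 to 2.52 under MMS, while the branched-chain members, LEU2 not among them, lie on both sides of 0, from -0.43 to 0.94, with LEU1, LEU9, BAT1 and the lysine gene LYS4 above 0 under library-size scaling.

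GCN4 itself did not pass. It read 667, 685 and 589 CPM in the wild type and 574, 565 and 549 CPM in the deletion strain, so that all deletion libraries lay slightly below (-0.20 ± 0.086, adjusted p = 0.0566). It passed without WT_MMS_3 (adjusted p = 0.0202), with RLE scaling (adjusted p = 0.0258), DESeq2 (adjusted p = 0.00483) and limma-voom (adjusted p = 0.0446), each time as lower, but stood at 0.14 under library-size scaling, without a call (adjusted p = 0.188). GCN2, the kinase gene, read 41.1, 52.6 and 54.9 CPM against 64.7, 62.6 and 65 CPM, higher by 0.37 ± 0.10 (adjusted p = 0.00636). Of 23 genes of Gcn2 to Gcn4 signalling 5 were higher and 14 lower (21.7% and 60.9%), where 32.0% of all genes were higher and 29.8% lower. Their median was -0.23, against 0.12 with 6 higher and 7 lower under library-size scaling. GCD14 is counted among the 14 and was the lowest of the list, at -7.12, a size set by WT_MMS_3 alone. Without that library it stood at -0.36. The lower ones held the translation initiation factor genes GCD11 (-1.03 ± 0.069), GCN3 (-0.78 ± 0.068), GCD1 (-0.74 ± 0.061) and SUI2 (-0.65 ± 0.067), which encode subunits of eIF2 and of its exchange factor eIF2B. GCN1, whose product carries the collision signal to Gcn2, went from 584, 473 and 492 to 272, 280.4 and 265 CPM, lower (-0.92 ± 0.092, adjusted p = 2.6e-06). Beside PCL5 and GCN2 the higher ones were the phosphatase gene GLC7 (0.83 ± 0.15), the phosphatase regulator gene TAP42 (0.76 ± 0.13) and the kinase gene PHO85 (0.26 ± 0.084, adjusted p = 0.0189). PHO85 lost its call without WT_MMS_2, WT_MMS_3 or hel2_MMS_3 (adjusted p = 0.0563 to 0.0691), with RLE scaling (adjusted p = 0.0838) and with DESeq2 (adjusted p = 0.0759).

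Ribosome quality control was covered by 23 genes, of which 12 rose and 5 fell, HEL2 itself among the latter. These were 52.2% and 21.7%, where 32.0% of all genes rose and 29.8% fell. The median was 0.24, against 0.58 with 18 higher and 3 lower (HEL2, ASC1 and RLI1) under library-size scaling. RQT4, which acts in the splitting of collided ribosomes, went from 3.23, 4.34 and 4.78 to 9.9, 11.4 and 10.8 CPM, by 1.37 ± 0.15 (adjusted p = 5.52e-06), and CUE3, of the same trigger complex, rose by 0.71 ± 0.15. Its helicase gene SLH1 did not pass, at 75.2, 76.4 and 78.8 and 79.2, 79.7 and 72.3 CPM, with overlapping libraries (0.005, adjusted p = 0.955), although it passed under library-size scaling at 0.35 (adjusted p = 0.0154). DOM34, which with Hbs1 rescues stalled ribosomes, rose by 0.80 ± 0.17 and SKI7, which ties ribosomes to the exosome, by 1.05 ± 0.21. ASC1, the ribosome-bound scaffold at which collisions are sensed, had 2577, 1737 and 1742 CPM in the wild type and 689.8, 643 and 578 CPM in the deletion strain, lower (-1.66 ± 0.16, adjusted p = 1.71e-06), and without MMS it differed by -0.37 (adjusted p = 0.176). RLI1, the ribosome recycling ATPase gene, fell (-1.35), SKI8, of the Ski complex (-0.41), and RKR1, the ubiquitin ligase gene of the split large subunit (-0.18, adjusted p = 4.75e-08, 0.00124 and 0.034). SKI8 lost its call under library-size scaling (adjusted p = 0.634). RKR1 stood at 0.17 under that scaling and lost its call without any 1 library but WT_MMS_1 (adjusted p = 0.0573 to 0.107).

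Purine genes rose at some steps and fell at others. Of 20 purine genes 9 rose and 5 fell, at a median of 0.13, against 0.47 with 15 higher under library-size scaling, whereas without MMS 2, GCV1 and GCV2, were higher and 10 lower, at a median of -0.30. The deletion effect was more positive under MMS at 12 members and more negative at 4, IMD2, IMD3, IMD4 and GUA1. GCV1, of the glycine cleavage system that feeds one-carbon units, had 118, 121 and 120.0 CPM in the wild type and 505, 517 and 538 CPM in the deletion strain, higher by 2.12 ± 0.057 (adjusted p = 1.12e-10). GCV2, of the same complex, rose by 1.43 ± 0.11 and MTD1, of folate metabolism, by 1.23 ± 0.14. The falls were at the branch to GTP: IMD4 had 285, 232 and 218 and 63.8, 61.3 and 53.6 CPM, lower (-2.04 ± 0.12), IMD3 was lower (-1.44 ± 0.084) and GUA1, GMP synthase (-1.53 ± 0.094), beside IMD2. ADE57 (ADE5,7, of the main purine pathway) was the remaining fall (-0.54, adjusted p = 0.00155). IMD2, IMD3 and IMD4 are close relatives, so reads may be shared among them. Pyrimidine genes were lower at 10 of 12 members, at a median of -0.93 under MMS and -0.34 without it, where 6 were lower. With library-size scaling 7 were lower and 2 higher under MMS, at a median of -0.57. FUR1, of uracil salvage, had 73.5, 72.8 and 59.5 CPM in the wild type and 19.6, 17.8 and 15.4 CPM in the deletion strain, and URA7, CTP synthase, 78, 87.3 and 76.4 and 23.1, 20.6 and 18.5 CPM, lower (-1.96 ± 0.11 and -1.96 ± 0.087). URA1, dihydroorotate dehydrogenase, fell (-1.83), and URA10, the minor orotate phosphoribosyltransferase, was the 1 member that rose with TMM scaling, by 0.88 ± 0.10.

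The genes of the translation machinery were lower in the deletion strain. Of 137 cytosolic ribosomal protein genes 115 fell and 5 rose, where 29.8% of all genes fell, at a median of -1.0, against -0.67 with 91 lower under library-size scaling. Summed, they stood at 76700, 78600 and 68340 CPM in the wild type and 32760, 30690 and 29520 CPM in the deletion strain, all deletion libraries below all wild type ones. RPL16B had 1370, 1307 and 1078 CPM in the wild type and 349, 330.4 and 315 CPM in the deletion strain, lower (-1.92 ± 0.11), and the stalk protein gene RPP1B was lower (-1.98 ± 0.13). The members that rose were RPL15B (12.8, 17.6 and 18.8 to 40.8, 42.1 and 45 CPM, by 1.38 ± 0.14), RPL22A (0.61 ± 0.17), RPL22B (0.52 ± 0.13), RPL41B (0.49 ± 0.16) and RPS9A (0.28 ± 0.089), each one of a pair of related copies, so that reads may be split between copies. RPL41B lost its call without WT_MMS_1 (adjusted p = 0.101) or hel2_MMS_1 (adjusted p = 0.0627), and RPS9A without hel2_MMS_1 (adjusted p = 0.08), which left 3 members higher. Without MMS 19 fell and 0 rose, at a median of -0.24, and the effect was more negative under MMS at 93 members by the test of the difference.

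Of 133 ribosome biogenesis genes 72 fell and 10 rose, at a median of -0.52, against -0.18 with 50 lower and 17 higher under library-size scaling, and 29 fell without MMS. NOP1, fibrillarin, had 480.2, 439.7 and 376 CPM in the wild type and 100.2, 102 and 91.1 CPM in the deletion strain, lower (-2.14 ± 0.10, adjusted p = 5.89e-09), and DHR2, a helicase of small subunit assembly, was lower (-1.58 ± 0.15). NOP53 went the other way, by 0.94 ± 0.17. In WT_MMS_1 this list lay at -0.44 against the other two libraries of its group, and without it 92 fell, at a median of -0.67. RNA polymerase I and III genes fell at 12 of 21 members and rose in none, at a median of -0.52, led by the largest subunits of polymerase I, RPA135 (320.5, 295 and 269 to 91.8, 92.3 and 77.4 CPM) and RPA190 (177, 183 and 177 to 59.4, 60.9 and 53.6 CPM). The median of the polymerase list was -0.69 with 16 lower without WT_MMS_1, and -0.20 under library-size scaling, where 8 were lower and 1, RPC37, higher. Translation factor genes fell at 25 of 30 members, at a median of -0.71, against -0.37 with 18 lower under library-size scaling, and HYP2 was not tested. TEF4, an elongation factor subunit, was lower (-2.07 ± 0.099) and ANB1, the anaerobic eIF5A (-2.19 ± 0.17). The 2 that rose were TIF4632, an eIF4G gene, by 0.67 ± 0.16, and HEF3, an alternative elongation factor, by 0.55 ± 0.20, whose call was lost without any 1 library but hel2_MMS_3 (adjusted p = 0.0524 to 0.116). Of 18 tRNA synthetase genes 13 fell and 1 rose, at a median of -0.37, but under library-size scaling 4 fell (FRS1, FRS2, GRS1 and HTS1) and 4 rose (DPS1, ILS1, KRS1 and TYS1), at a median of -0.038. FRS2 fell (-0.99) and GRS1 (-0.91), the genes for phenylalanine and glycine, while KRS1, for lysine, rose from 422, 517 and 493 to 715, 721 and 704 CPM, by 0.58 ± 0.085 (adjusted p = 6.69e-05). Among mitochondrial ribosomal protein genes 23 of 67 rose, a share near the 32.0% of all genes, and 13 fell, against 29.8% of all genes, at a median of 0.24. RSM18 (1.59 ± 0.24) and MRP8 (1.52 ± 0.17) led the list, and whether the product of MRP8 is part of that ribosome was not checked here. Without WT_MMS_1 17 rose and 15 fell, at a median of 0.12, and under library-size scaling 37 rose and 2 (MRPL19 and MRP4) fell, at a median of 0.58.

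General stress genes, targets of Msn2 and Msn4, were mostly higher in the deletion strain. Under MMS 30 of 36 rose and 3 fell, at a median of 1.08, where 32.0% of all genes rose and 29.8% fell. Without MMS 20 rose and none fell, at a median of 0.74, where 5.25% of all genes rose. Besides HSP12 and TKL2, SIP18, an osmotic stress gene, had 2.9, 1.78 and 2.9 CPM in the wild type and 21.2, 13.3 and 14.6 CPM in the deletion strain, NQM1, a transaldolase relative, 34.2, 30.5 and 32.2 and 157, 140.5 and 156 CPM, and ALD3, an aldehyde dehydrogenase, 177, 84.4 and 123 and 631, 465 and 573 CPM. Every one of these rose without overlap, by 2.7, 2.22 and 2.12. TIP1, a wall mannoprotein gene, fell (-2.02 ± 0.12) and HXK1, hexokinase 1 (-1.16 ± 0.11), and MRK1, a kinase gene, was lower (-0.22, adjusted p = 0.0483), a call lost under most alternatives, with 0.13 under library-size scaling. MRK1 passed without WT_MMS_3 and lost its call without any of the other 5 libraries in turn (adjusted p = 0.0599 to 0.141). HXK1 turned round between conditions: it had 23.8, 28.5 and 26.9 CPM in the wild type and 95.8, 82.7 and 102 CPM in the deletion strain without MMS (higher by 1.82, adjusted p = 1.07e-06), but 940.1, 746 and 788 and 379.5, 376 and 349 CPM under MMS. WT_MMS_1 lay 0.40 above its group in this list, and without it the median was 1.24.

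Trehalose and glycogen genes rose at 11 of 17 members and fell in 1, where 32.0% of all genes rose and 29.8% fell. Their median was 0.51, or 0.68 with 12 higher without WT_MMS_1, and 9 rose without MMS. GLG1, which primes glycogen, rose by 1.23 ± 0.14 and NTH1, neutral trehalase, by 1.12 ± 0.084, while GAC1, a regulator of glycogen synthase phosphatase, fell (-0.46, adjusted p = 0.00326, or 0.408 under library-size scaling). Of 32 chaperone genes 21 rose and 8 fell, at a median of 0.47. HSP42, a small heat shock protein that gathers misfolded proteins, had 99.8, 129 and 166 CPM in the wild type and 604, 646 and 701 CPM in the deletion strain, higher by 2.3 ± 0.18 (adjusted p = 2.47e-07). The disaggregase HSP104 had 555, 619 and 734 and 2070, 2087 and 2154 CPM, and its mitochondrial relative HSP78 116, 131 and 158 and 462, 484 and 496 CPM. HSP42, HSP104 and HSP78 were also higher without MMS, by 1.18, 1.03 and 1.26. Chaperones that work on the ribosome fell: SSB2 had 1911, 1606 and 1436 CPM in the wild type and 478, 459.9 and 418 CPM in the deletion strain, SSB1, its near copy, was lower (-1.82 ± 0.13), SSZ1 (-0.88 ± 0.084) and ZUO1 (-0.31 ± 0.08), though ZUO1 stood at 0.025 under library-size scaling. The mitochondrial chaperones HSP60, SSC1 and HSP10 were lower (-0.73 ± 0.13, -0.57 ± 0.10 and -0.48 ± 0.087), HSP10 without a call under library-size scaling (adjusted p = 0.279). HCH1, an Hsp90 activator, was lower (-0.23), or higher by 0.11 under library-size scaling (adjusted p = 0.402).

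Proteasome genes rose at 25 of 37 members and fell in 2, at a median of 0.46 under MMS and 0.066 without it, where 1 member, UBI4, rose. Leaving out WT_MMS_1 gave a median of 0.335 under MMS, with 25 higher and 2 lower. RPN5 and RPN8, of the regulatory particle, had 64.9, 114 and 119.5 and 65.1, 109 and 108 CPM in the wild type and 226, 227 and 238 and 201, 205 and 214 CPM in the deletion strain. WT_MMS_1 was the lowest of the wild type libraries for both, and the deletion libraries lay above all of them, by 1.21 ± 0.18 and 1.14 ± 0.16. RPN4, the activator of proteasome genes, rose by 0.83 ± 0.12, and UBI4, polyubiquitin, by 0.76 ± 0.085. ECM29, a proteasome tether, fell (-0.43, adjusted p = 0.00167, or 0.39 under library-size scaling). RPT5 was lower (-0.17, adjusted p = 0.0324), but stood at 0.17 under that scaling and lost its call without WT_MMS_2, WT_MMS_3, hel2_MMS_1 or hel2_MMS_2 (adjusted p = 0.0571 to 0.117). Autophagy genes rose at 24 of 37 members and fell in 5, at a median of 0.69, or 0.23 without MMS. ATG39, a receptor for autophagy of the nucleus, had 10.1, 9.35 and 13.3 CPM in the wild type and 37.3, 35.6 and 41.3 CPM in the deletion strain, ATG8, the lipid-linked marker of autophagosomes, 10.3, 17.1 and 15.5 and 42.7, 43.2 and 46.4 CPM, and ATG1, the starting kinase, 24.4, 25.6 and 31.1 and 58.4, 63 and 63.2 CPM. Each of these rose without overlap, and ATG13, the partner of Atg1, by 1.19 ± 0.15. ATG18, ATG10, ATG44, ATG27 and ATG5 fell (-0.57, -0.51, -0.48, -0.44 and -0.24), and under library-size scaling ATG18 alone kept its call while ATG5 stood at 0.12. ATG5 also lost it without hel2_MMS_1 (adjusted p = 0.061). Of 11 genes of vacuolar proteases and their inhibitors 6 rose, at a median of 0.46, among them the inhibitors PAI3 (1.36 ± 0.14) and PBI2 (1.34 ± 0.18), and CPS1, a carboxypeptidase, fell (-0.36, adjusted p = 0.00651, or 0.968 under library-size scaling). Without WT_MMS_1 the vacuolar list had a median of 0.70 and 9 members higher. Oxidative stress genes had 14 of 35 higher and 7 lower (32.0% and 29.8% over all genes) and a median of 0.095, from GRX4 at the top to FLR1, a drug efflux transporter, at -1.36 ± 0.14. Under library-size scaling 23 were higher and 4 lower (TRX1, OYE2, OYE3 and FLR1), at a median of 0.47.

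The inducible genes of ribonucleotide reductase were lower in the deletion strain under MMS. RNR3 (YIL066C), the damage-inducible large subunit, had 497, 501 and 412 CPM in the wild type and 100.5, 103 and 86.1 CPM in the deletion strain, lower (-2.29 ± 0.14, adjusted p = 5.2e-08). In the untreated strain without Hel2 it was higher, by 0.61 (adjusted p = 0.0221), at 10.1 ± 1.25 against 15.5 ± 3.19 CPM. HUG1, an inhibitor of the enzyme that the checkpoint induces, showed the same turn, with 521, 624 and 525 CPM in the wild type and 195, 175 and 162 CPM in the deletion strain under MMS (-1.65 ± 0.10) and a difference of 0.82 without it (adjusted p = 0.000354). RNR1 was lower (-2.23 ± 0.13), RNR2 (-1.17 ± 0.099) and RNR4 (-0.68 ± 0.10). Over all 53 DNA damage genes, 21 rose and 13 fell, at a median of 0.20, where 32.0% of all genes rose and 29.8% fell. Under library-size scaling 31 of them rose and 10 fell, at a median of 0.54, and without WT_MMS_1 17 rose, at a median of 0.14. RAD4 and RAD2, of nucleotide excision repair, rose by 1.5 ± 0.10 and 1.17 ± 0.26, and MAG1, the glycosylase that removes alkylated bases, by 0.62 ± 0.15. DDI2 and DDI3, near-identical genes strongly induced by MMS, were at 85.3, 67.4 and 65.6 and 48.7, 43.3 and 36.9 CPM in the wild type and 65.9, 61 and 63.4 and 30, 31.4 and 25 CPM in the deletion strain: DDI2 did not pass (-0.20, adjusted p = 0.315, and a log2 difference of 0.16 under library-size scaling) and DDI3 was lower (-0.58, adjusted p = 0.00528, or 0.229 under library-size scaling), but reads can be shared between them.

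Genes of the G1 to S transition fell at 26 of 37 members and rose in 3, at a median of -0.60, against -0.26 with 16 lower under library-size scaling, and without MMS none passed in either direction. The G1 cyclin gene CLN2 had 56.3, 56.6 and 53.3 CPM in the wild type and 17.3, 15.1 and 13.8 CPM in the deletion strain, lower (-1.85 ± 0.082, adjusted p = 4.88e-09), and CLN1 and CLN3 were lower (-1.35 ± 0.15 and -1.05 ± 0.094). PCL1, another G1 cyclin, read 16, 20.8 and 22 against 3.98, 3.5 and 3.25 CPM, and CLB6, of S phase, 6.96, 8.77 and 7.24 against 1.8, 1.51 and 1.55 CPM. SIC1, the inhibitor that holds cells before S phase, rose from 10.8, 13.3 and 15.4 to 34.3, 37.6 and 35.9 CPM, by 1.44 ± 0.12 (adjusted p = 6.79e-07). MBP1 and SWI6, the regulators of these genes, rose by 0.37 and 0.28 (adjusted p = 0.0253 and 0.0367). Both lost the call without WT_MMS_1, hel2_MMS_2 or hel2_MMS_3 (adjusted p = 0.0637 to 0.134), leaving 1 higher member. G2 to M genes had 5 of 21 higher and 6 lower, at a median of 0.039, where 32.0% of all genes were higher and 29.8% lower, and under library-size scaling 11 were higher and 3 lower (CLB1, CLB2 and FKH1), at a median of 0.38. CDC20, the activator of the anaphase-promoting complex, rose by 1.53 ± 0.15, HOF1 by 0.83 ± 0.13, SWI5 by 0.65 ± 0.15, KIN3 by 0.36 ± 0.087 and FKH2 by 0.43 ± 0.16 (adjusted p = 0.0299, or 0.0819 without hel2_MMS_2 and 0.0623 without hel2_MMS_3). CDC20 is a neighbour of YGL117W, with which reads may be shared. The mitotic cyclin genes CLB1 and CLB2 fell (-1.33 and -0.95).

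Histone genes split by copy. One copy of each core histone rose: HTA1 had 132, 148 and 116 CPM in the wild type and 207, 194 and 197 CPM in the deletion strain (0.59 ± 0.096), HHF1 77.8, 114 and 87 and 152, 154 and 169 CPM (0.77 ± 0.13), HHT1 38, 63.9 and 55.8 and 128, 113 and 125 CPM (1.21 ± 0.16), and HTB1 rose by 0.55 ± 0.14. The other copies did not: HTB2 had 124, 131 and 93.5 CPM in the wild type and 46.2, 42.1 and 42.7 CPM in the deletion strain (-1.41 ± 0.11), HTA2 was lower (-0.63 ± 0.12), HHF2 (-0.35 ± 0.12), and HHT2 did not pass (0.086, adjusted p = 0.507). The linker histone gene HHO1 and the variant gene HTZ1 were lower (-1.25 ± 0.069 and -0.47 ± 0.081). The 11 genes had a median of -0.18, against 0.16 under library-size scaling, where HTA2, HHF2 and HTZ1 had no call (adjusted p = 0.135, 0.924 and 0.174). HHF2 lost its call without WT_MMS_2, hel2_MMS_1 or hel2_MMS_2 (adjusted p = 0.0539 to 0.125). Copies of a core histone gene are nearly identical within the coding part, so reads can be assigned to the wrong copy.

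Glycolysis was lower in the deletion strain under MMS in 17 of 19 genes and higher in none, where 29.8% of all genes were lower. The median was -0.96, against -0.59 with 17 lower and 1 higher under library-size scaling. HXK2, the main hexokinase, had 1016, 979.9 and 821 CPM in the wild type and 201, 217 and 207 CPM in the deletion strain, lower (-2.17 ± 0.10, adjusted p = 5.89e-09). ADH1, alcohol dehydrogenase, had 28270, 18790 and 19580 and 6075, 5921 and 5372 CPM, and PDC1, pyruvate decarboxylase, 17420, 13700 and 13090 and 4298, 4349 and 3846 CPM. TDH3, the most abundant transcript of every library, had 76470, 50420 and 51500 CPM in the wild type and 31390, 31230 and 29190 CPM in the deletion strain, lower (-0.96 ± 0.17, adjusted p = 0.000382). In all 4 genes WT_MMS_1 was the highest library, and no deletion library reached any wild type library. WT_MMS_1 lay 0.39 above its group over the list, and without it 17 fell, at a median of -0.86. PYK2, the minor pyruvate kinase, and PDC6, the minor decarboxylase, did not pass (-0.26 and 0.31, adjusted p = 0.0747 and 0.285); PYK2 passed as a fall without WT_MMS_2 (adjusted p = 0.0187), with RLE scaling (adjusted p = 0.0427) and with DESeq2 (adjusted p = 0.0344) but stood at 0.099 under library-size scaling, and PDC6 passed as a rise under that scaling (adjusted p = 0.041) but stood at -0.17 without hel2_MMS_3. Without MMS 2 glycolysis genes, TDH1 and PYK2, were higher and none lower, at a median of -0.035, and the effect was more negative under MMS at 18.

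Hexose transport genes rose in 4 and fell at 6 of 16 members, where 32.0% of all genes rose and 29.8% fell. Their median was -0.25, against 0.1 under library-size scaling. Against HXT5, the transporters HXT7 (483, 212 and 277 to 96.9, 67.7 and 74.3 CPM) and HXT6 (78.3, 39.2 and 48.5 to 17.7, 13.4 and 14.2 CPM), near-identical copies, and HXT4 and HXT2 fell (-2.02 ± 0.28, -1.87 ± 0.22, -1.82 ± 0.14 and -1.22 ± 0.15). MTH1 and STD1, which hold glucose transporter genes silent, rose by 1.05 ± 0.12 and 0.54 ± 0.16, and MIG1, the glucose repressor, by 1.02 ± 0.13. Citrate cycle genes rose at 10 of 24 members and fell in 2, at a median of 0.18, where 32.0% of all genes rose, and MDH2, the cytosolic malate dehydrogenase, rose by 0.74 ± 0.12. Without WT_MMS_1 15 rose, at a median of 0.28, and under library-size scaling 22 rose and none fell, at a median of 0.55. The falls, CIT3 (-0.40) and FUM1 (-0.38), had no call under library-size scaling (adjusted p = 0.76 and 0.718), and CIT3 lost its own without hel2_MMS_3 (adjusted p = 0.0585). Respiratory chain genes rose at 21 of 34 members and fell in 4, at a median of 0.42 under MMS and -0.035 without it. QCR7, of complex III, rose by 1.3 ± 0.16 and NDE2, an external NADH dehydrogenase, by 1.26 ± 0.21. ATP18, ATP5, ATP2 and CYC1 fell (-0.35, -0.33, -0.28 and -0.26), but none had a call under library-size scaling, where ATP5, ATP2 and CYC1 stood at 0.035, 0.085 and 0.095. ATP2 lost its call without WT_MMS_1 or any 1 deletion library (adjusted p = 0.0828 to 0.178) and CYC1 without WT_MMS_1, hel2_MMS_2 or hel2_MMS_3 (adjusted p = 0.07 to 0.165), which left ATP18 and ATP5.

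Cell wall genes fell more often than they rose. Of 40 cell wall genes 21 fell and 11 rose (52.5% and 27.5%), where 29.8% of all genes fell and 32.0% rose. Their median was -0.50, against -0.13 under library-size scaling, where 18 fell and 14 rose. CWP2, an abundant wall mannoprotein, had 13400, 10340 and 8355 CPM in the wild type and 2241, 1999 and 1851 CPM in the deletion strain, and GAS1, the main glucan-remodelling enzyme, 2243, 1817 and 1574 and 366, 362 and 345 CPM, lower (-2.4 ± 0.16 and -2.39 ± 0.14) beside SCW10, CIS3 and TIR1. PIR3, a wall protein of stress, rose from 41.2, 20 and 31 to 132, 122 and 131 CPM and DSE1, of daughter cell separation, from 80.2, 93.2 and 93.6 to 338, 369 and 340.4 CPM, by 2.07 ± 0.19 and 1.97 ± 0.095. In WT_MMS_1 the wall list lay 0.40 above its group, and without it the median was -0.31, with 21 lower and 12 higher. Genes of protein folding and modification in the endoplasmic reticulum fell at 22 of 29 members and rose in 1, and without MMS none passed. Their median was -0.76, or -0.61 without WT_MMS_1, against -0.41 with 16 lower and 3 higher under library-size scaling. PMT2 and PMT1, mannosyltransferases, had 923, 644 and 684 and 781, 557 and 606 CPM in the wild type and 216, 231 and 223 and 256, 264 and 262 CPM in the deletion strain. PDI1, the disulfide isomerase, was lower (-1.26 ± 0.12), KAR2, the Hsp70 of the compartment (-0.67 ± 0.088) and HAC1, the activator of the unfolded protein response (-0.78 ± 0.13), while ERO1, the oxidase of that pathway, was higher by 0.35 ± 0.086 (adjusted p = 0.00316). Ergosterol synthesis genes fell at 17 of 26 members, at a median of -0.39, against -0.036 with 10 lower under library-size scaling. ERG13, HMG-CoA synthase, fell (-1.3 ± 0.086) and ERG4, of the last step (-1.09 ± 0.15), while ERG8 and IDI1, of the mevalonate part, rose by 0.44 ± 0.089 and 0.53 ± 0.14.

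Of 24 iron genes 8 rose and 6 fell, at a median of 0.017, shares near those of all genes (32.0% and 29.8%), led by the regulator AFT2 (1.28 ± 0.15) and CTH1 (1.0 ± 0.072), which degrades messages when iron is scarce. Of the 6 that fell, ARN1 and FRE1 alone stayed called without WT_MMS_1 or hel2_MMS_1, and FIT2, ARN1 and FRE1 without hel2_MMS_2 or hel2_MMS_3. Without WT_MMS_1 10 iron genes rose, at a median of 0.12, and under library-size scaling 13 rose and FRE1 alone fell, at a median of 0.39. Of 20 phosphate genes 9 rose and 4 fell, at a median of 0.16, against 0.51 with 14 higher and 2 (PHO86 and PHO3) lower under library-size scaling, and SPL2, a regulator of uptake, rose by 1.6 ± 0.19 beside PHO89. PHO3, an acid phosphatase, fell (-1.21 ± 0.089), PHO86 (-0.52 ± 0.076), PHM6 (-0.47 ± 0.18) and VTC1, of polyphosphate synthesis (-0.39 ± 0.12). PHM6 lost its call without WT_MMS_1, hel2_MMS_2 or hel2_MMS_3 (adjusted p = 0.116 to 0.152) and VTC1 without hel2_MMS_2 (adjusted p = 0.0566), and neither had one under library-size scaling. Of 19 mating genes 5 rose and 8 fell, where 32.0% of all genes rose and 29.8% fell. Their median was -0.12, against 0.23 under library-size scaling. GPA1 and STE18, subunits of the pheromone G protein, rose by 1.15 ± 0.18 and 0.82 ± 0.14, ASG7 by 0.75 ± 0.14, FUS2 by 0.41 ± 0.15 and AGA2 by 0.30 ± 0.088, and FIG1, of mating, fell (-1.61 ± 0.35). FUS2 lost its call without WT_MMS_1, WT_MMS_3, hel2_MMS_2 or hel2_MMS_3 (adjusted p = 0.0539 to 0.119). Of the 4 alpha cell markers STE3 was lower (-1.48 ± 0.43, adjusted p = 0.0107, or 0.0658 without WT_MMS_1), and the list had a median of -0.31, against 0.012 under library-size scaling. Median differences by chromosome ran from -0.17 on chromosome I to 0.15 on chromosome XI.

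**Figure D4:**
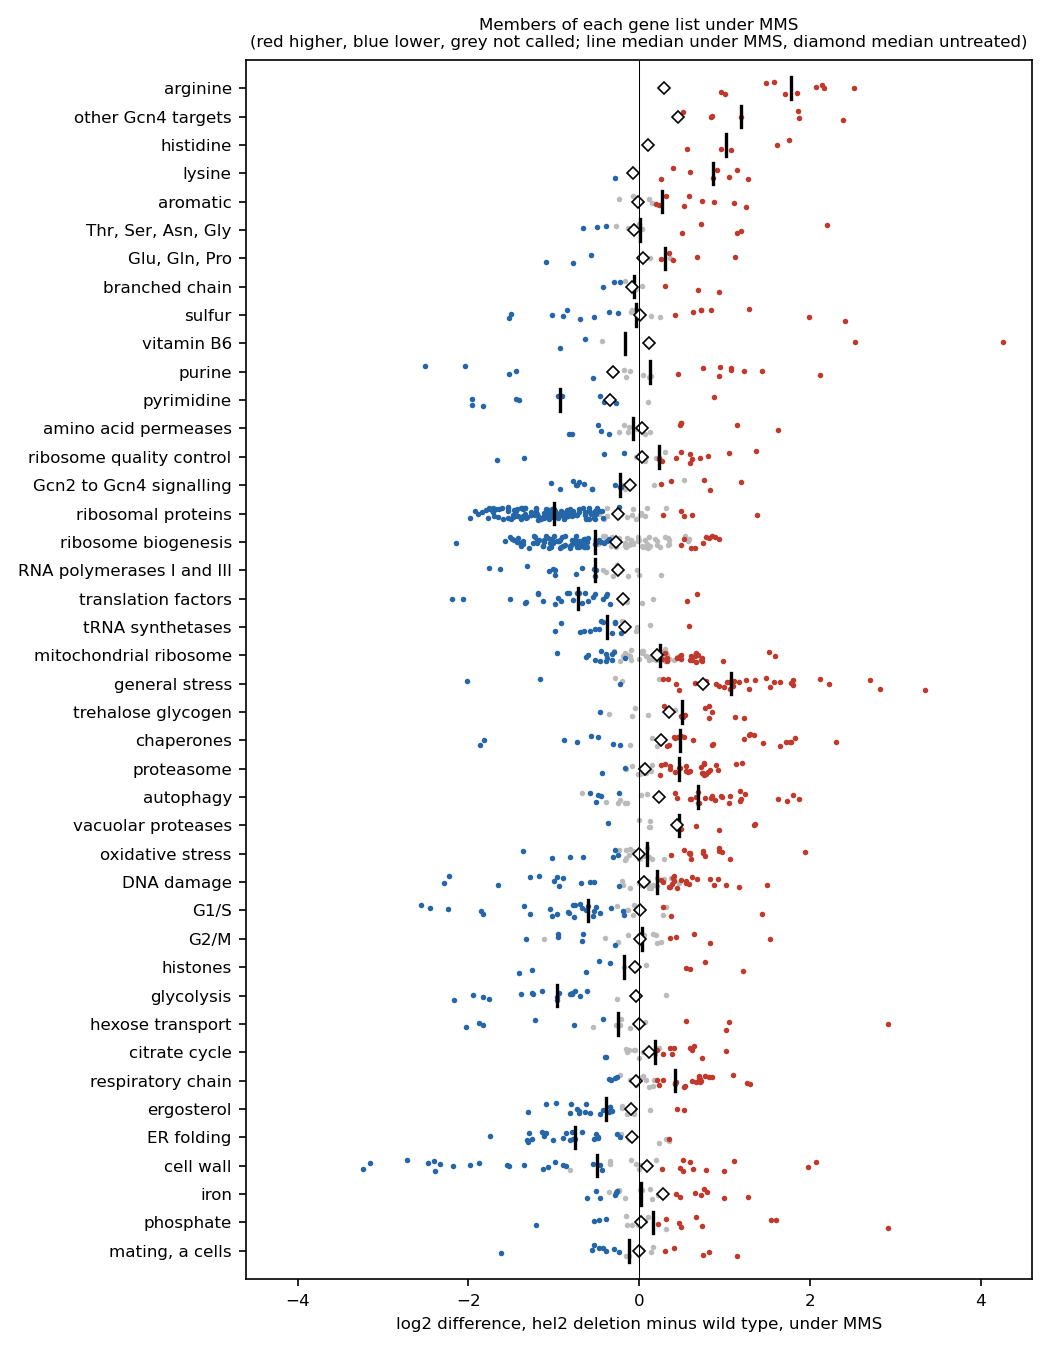
Log2 difference between deletion and wild type under MMS (horizontal axis) of the tested members of 42 gene lists (red called higher, blue called lower, grey not called), with the median of each list under MMS (line) and without MMS (diamond). HEL2 (-5.98) and GCD14 (-7.12) lie outside the axis and are not drawn, but count in the medians. Arginine genes lie furthest to the right, at a median of 1.78, and ribosomal protein genes furthest to the left, at a median of -1.0; under library-size scaling the medians of the Gcn2 to Gcn4, branched-chain, sulfur, vitamin B6, permease, hexose transport, histone and mating lists change sign.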

How the data were processed

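Poly(A) RNA was sequenced from 12 yeast libraries, 3 each of wild type and hel2 deletion cells with and without MMS. The values used are raw read counts per gene, deposited by the authors as 1 table of 12 count columns with 7109 gene identifiers, of which 97 are repeated and had the same values on every line and were kept once. Reads were processed with STAR 2.5.1a and featureCounts 1.4.6-p5 of Subread, and Salmon is also listed, per the submitters' processing notes. For strandedness, multi-mapping reads and genome build, nothing is given in the sources used here. Gene symbols came from RefSeq (R64), which named 5277 of the identifiers.

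Groups were taken from the labels. Counts were filtered (filterByExpr), scaled by TMM and fitted with edgeR 4.0.16 in R 4.3.3 (robust quasi-likelihood, all 12 libraries in 1 fit without a replicate block), and adjusted p-values are Benjamini-Hochberg values over the 6463 genes tested, with a call at under 0.05. Contrasts were deletion against wild type under MMS, the same without MMS, and the difference of both. The procedure was also tested on simulated counts. The named genes are HEL2, LEU2, HIS3, MET17, URA3, GCN2, GCN4 and the neighbours of HEL2 and LEU2, then the 12 largest rises and 12 largest falls among called genes with a standard symbol, a mean log2 CPM of at least 4 and no overlap, and up to 2 called members with the largest change in each of 46 lists; all others were chosen after their values were seen, and a few genes are not reported here. The lists and the comparison itself were chosen with earlier results of these data known. The titles call the replicates biological but do not say whether they were separate cultures or clones, so p-values measure the spread between these libraries, which may be partly technical. Same-numbered libraries did not vary together (18 pairs, correlations of deviations from -0.36 to 0.20, of which 1 was over 0.1), so the numbers were not taken as pairs. Alternatives were RLE and library-size scaling, no filter or one at 4 log2 CPM, DESeq2 1.42.0, limma-voom (limma 3.58.1), a replicate block, a fit of the 6 libraries compared, each library left out and, added after the data were seen, genes high in 1 library left out.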

Additional observations from a re-analysis of the deposited data

Results flagged for a closer look

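The deletion effect differed between the MMS-treated and the untreated libraries at the genes listed here, by the test of the difference itself (edgeR's quasi-likelihood test with Benjamini-Hochberg adjustment over 6463 genes, adjusted p under 0.05, n = 3 per group). Each value is the log2 difference between deletion and wild type under MMS minus the same difference without MMS, so a value above 0 stands for an effect that was more positive under MMS. The genes are those the text above names, and 18.6% of all genes tested were positive and 21.5% negative. Groups of 3 libraries are too small for a test of single outlying samples, and none was made.

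Among ribosome quality control genes, RQT4 (1.39), SKI7 (0.98), DOM34 (0.89), HEL2 (0.83) and CUE3 (0.78) were above 0. HEL2 is the deleted gene, and its value rests on low counts in the deletion libraries: 27, 19 and 20 untreated and 35, 39 and 29 under MMS. Of the ribosome quality control genes, those below 0 were ASC1 (-1.3) and RLI1 (-1.04). Among strain marker genes, HIS3 (0.78) was above 0. Of the strain marker genes, LEU2 (-1.53) was below 0. That value rests on low counts of LEU2 in the wild type libraries: 16, 19 and 2 untreated and 28, 20 and 21 under MMS. Among genes on none of the lists, ARO5 (3.86), MTG1 (2.98), BSC5 (2.17), FMP16 (2.01) and PEX10 (0.34) were above 0. Of the genes on none of the lists, those below 0 were TOS6 (-3.28), INA1 (-2.96), ELO3 (-2.52), SIM1 (-2.49) and SRL1 (-2.41). Among vitamin B6 genes, SNZ1 (4.15) and SNO1 (2.3) were above 0. Of the vitamin B6 genes, SNZ2 (-0.61) was below 0. Among general stress genes, TKL2 (2.77), SIP18 (1.94), ALD3 (1.93), NQM1 (1.43), HSP12 (1.35) and PAI3 (0.92) were above 0. Of the general stress genes, those below 0 were HXK1 (-2.99) and TIP1 (-2.02). Among hexose transport genes, HXT5 (2.47) and MIG1 (0.60) were above 0. Of the hexose transport genes, those below 0 were HXT7 (-2.3), HXT6 (-1.98), HXT4 (-1.22) and HXT2 (-1.02). Among phosphate genes, PHO89 (2.35) and SPL2 (1.41) were above 0. Of the phosphate genes, those below 0 were PHO3 (-0.97) and PHO86 (-0.43).

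Among arginine synthesis genes, ARG56 (1.98), ARG3 (1.81), CPA1 (1.57), ARG1 (1.2), ARG4 (0.99) and ARG2 (0.91) were above 0. Among cell wall genes, PIR3 (1.91) and DSE1 (1.49) were above 0. Of the cell wall genes, those below 0 were SCW10 (-3.08), TIR1 (-3.02), CIS3 (-2.93), CWP2 (-2.18) and GAS1 (-2.16). Among purine genes, GCV1 (1.77), MTD1 (1.36) and GCV2 (0.93) were above 0. Of the purine genes, those below 0 were IMD2 (-1.81), IMD4 (-1.48), GUA1 (-1.18) and IMD3 (-1.14). Among genes of Gcn2 to Gcn4 signalling, GLC7 (0.82), TAP42 (0.68) and PCL5 (0.41) were above 0. Of the genes of Gcn2 to Gcn4 signalling, those below 0 were GCN1 (-0.86), GCD11 (-0.80), GCN3 (-0.66), GCD1 (-0.53) and SUI2 (-0.35). Among histidine synthesis genes, HIS5 (1.55), HIS4 (1.22) and HIS6 (0.33) were above 0. Among lysine synthesis genes, LYS14 (1.03) and LYS1 (0.90) were above 0. Among branched-chain synthesis genes, ILV2 (0.65), LEU4 (0.57) and ILV3 (0.42) were above 0. Among aromatic synthesis genes, ARO3 (1.24) and ARO9 (0.87) were above 0. Among genes of threonine, serine and asparagine synthesis, SER3 (2.07), ASN1 (0.92), HOM3 (0.83), SER1 (0.82) and HOM2 (0.39) were above 0. Of the genes of threonine, serine and asparagine synthesis, those below 0 were THR1 (-0.51) and SER2 (-0.38). Among glutamate and proline genes, GLT1 (0.74), GDH2 (0.35) and PRO2 (0.34) were above 0.

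Of the glutamate and proline genes, those below 0 were PRO3 (-0.81), PRO1 (-0.59) and GDH1 (-0.44). Among sulfur amino acid genes, STR2 (1.91) and STR3 (1.82) were above 0. Of the sulfur amino acid genes, those below 0 were CYS3 (-1.35) and SAM1 (-1.17). Among other Gcn4 targets, TMT1 (1.86), UGA3 (1.58) and ATG41 (1.36) were above 0. Among amino acid permease genes, AGP1 (1.5), MUP3 (0.69) and CAN1 (0.44) were above 0. Of the amino acid permease genes, those below 0 were AGP2 (-1.29), TAT2 (-0.73) and TAT1 (-0.57). Among pyrimidine genes, URA10 (0.87) was above 0. Of the pyrimidine genes, those below 0 were FUR1 (-1.55), URA7 (-1.44) and URA1 (-1.28). Among ribosomal proteins genes, RPL15B (1.35), RPL41B (0.80) and RPL22B (0.51) were above 0. Of the ribosomal proteins genes, those below 0 were RPL16B (-1.71) and RPP1B (-1.69). On the list of mitochondrial ribosomal protein genes, RSM18 (1.36) and MRP8 (0.85) were above 0. Among ribosome biogenesis genes, NOP53 (1.35) was above 0. Of the ribosome biogenesis genes, those below 0 were NOP1 (-1.72) and DHR2 (-0.98). Of the RNA polymerase I and III genes, those below 0 were RPA135 (-1.37) and RPA190 (-1.27).

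Of the translation factors genes, those below 0 were ANB1 (-2.05) and TEF4 (-1.69). Among tRNA synthetase genes, KRS1 (0.70) was above 0. Of the tRNA synthetase genes, those below 0 were FRS2 (-0.86) and GRS1 (-0.75). Among trehalose glycogen genes, GLG1 (1.07) and NTH1 (0.56) were above 0. Among chaperones genes, HSP42 (1.12), HSP104 (0.69) and HSP78 (0.57) were above 0. Of the chaperones genes, those below 0 were SSB2 (-1.65), SSB1 (-1.55), HSP60 (-1.04), SSC1 (-0.74), HSP10 (-0.73), SSZ1 (-0.59) and HCH1 (-0.31). Among DNA damage genes, RAD4 (1.31) was above 0. Of the DNA damage genes, those below 0 were RNR3 (-2.9), HUG1 (-2.47), RNR1 (-2.22), RNR2 (-1.16) and RNR4 (-0.60). Among proteasome genes, RPN8 (1.02), RPN5 (0.97) and RPN4 (0.60) were above 0. Of the proteasome genes, ECM29 (-0.58) was below 0. Among oxidative stress genes, GRX4 (2.04) was above 0. Of the oxidative stress genes, FLR1 (-1.43) was below 0. Among autophagy genes, ATG39 (1.54), ATG1 (0.96) and ATG13 (0.73) were above 0. Of the autophagy genes, those below 0 were ATG18 (-0.48) and ATG44 (-0.43).

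Among vacuolar proteases genes, PBI2 (0.81) was above 0. Of the vacuolar proteases genes, CPS1 (-0.56) was below 0. Of the glycolysis genes, those below 0 were HXK2 (-2.1), ADH1 (-1.93), PDC1 (-1.63), TDH3 (-0.94) and PYK2 (-0.90). Among citrate cycle genes, MDH2 (1.15) was above 0. Among respiratory chain genes, QCR7 (1.23) and NDE2 (1.02) were above 0. Of the respiratory chain genes, ATP18 (-0.33) was below 0. Among ergosterol genes, ERG8 (0.51) was above 0. Of the ergosterol genes, those below 0 were ERG4 (-1.13) and ERG13 (-1.05). Among iron genes, CTH1 (0.96) and AFT2 (0.96) were above 0. Of the genes of folding in the endoplasmic reticulum, those below 0 were PMT2 (-1.62), PMT1 (-1.22), PDI1 (-1.18), KAR2 (-0.73) and HAC1 (-0.63). Among histones genes, HHT1 (1.25), HHF1 (0.82), HTA1 (0.76) and HTB1 (0.61) were above 0. Of the histones genes, those below 0 were HTB2 (-1.27), HHO1 (-1.21) and HTZ1 (-0.35). Among genes of the G1 to S transition, SIC1 (1.28) was above 0. Of the genes of the G1 to S transition, those below 0 were PCL1 (-2.57), CLB6 (-2.09), CLN2 (-1.93), CLN1 (-1.43) and CLN3 (-1.0).

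Among genes of the G2 to M transition, CDC20 (1.42), HOF1 (0.82) and KIN3 (0.58) were above 0. Of the genes of the G2 to M transition, those below 0 were CLB1 (-1.22) and CLB2 (-0.79). Among mating genes, GPA1 (1.06), STE18 (0.82) and ASG7 (0.66) were above 0. Of the mating genes, those below 0 were MFA1 (-0.79) and BAR1 (-0.52).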

How the results depend on the processing

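With library-size scaling 3143 genes were higher and 984 lower under MMS, 75 were lower without MMS, and the difference was negative at 748. Above the filter at a mean of 4 log2 CPM, 635 differed at least 2-fold under MMS, 30 without it, and 421 in the difference. DESeq2 called 839 genes without MMS, 419 of them lower. With each library left out in turn, 3581 to 3955 genes passed under MMS, 305 to 373 without it (209 to 261 higher, 75 to 135 lower) and 2193 to 2828 in the difference. The replicate block gave 3836 genes under MMS (1997 higher, 1839 lower), 402 without it (267 higher, 135 lower) and 2378 in the difference; 3 of the 12 libraries correlated best with their own number. Without the genes high in 1 library, 3992 passed under MMS. The other alternatives kept each of these counts over all genes within 1.5 times.

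Of the 3953 named gene values under an alternative, 3736 kept their sign and side of the threshold, 189 lost a call, 17 gained one and 27 changed sign. In 16 of these 27 a call was lost or gained, in each case under library-size scaling, for CIA1 (0.145), RKR1 (0.167), LYS4 (0.079), BAT1 (0.119), LEU1 (0.258), LEU9 (0.063), MRK1 (0.126), ZUO1 (0.025), HCH1 (0.107), RPT5 (0.172), SAM3 (0.012), ATG5 (0.115), ATP5 (0.035), ATP2 (0.085), CYC1 (0.095) and STE2 (0.110). The remaining 11, with no call in either fit, were GCN4, PYK2 and DDI2 under the same scaling, PDC6 without hel2_MMS_3, HHT2 without WT_MMS_1, and SLH1 under 6 alternatives. The cause of these changes was not tested. List counts moved by over 1.5 times in 119 of the values recomputed and stayed within that in 1261. The planned search for promoter motifs was not run, since no promoter sequence was used here. Genes at low counts, such as MET17 and URA3, are the least certain, and with 3 libraries per group their number limits the precision.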
